A study of Mus musculus with 6 samples.

Results

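The 10 genes described here are the Eph receptors and ephrins of the intestinal crypt: the B-type receptors Ephb2, Ephb3, Ephb4 and Ephb6, the A-type receptors Epha1 and Epha2, the B-type ephrins Efnb1 and Efnb2, and the A-type ephrins Efna1 and Efna4. They were taken by gene symbol from a table of 18159 genes, which holds all 10 of them, and all 10 passed the filter on low counts that left 13558 genes for testing. RNA selected on oligo(dT) was sequenced from intestinal epithelial cells of mice aged 12 days, in 3 libraries labelled Git2-knockout and 3 wild-type libraries. The series' design text calls the material enteroids, which are epithelial organoids grown from crypts, where the titles speak of epithelial cells. The genotype field says knockdown for the libraries whose titles say knockout, and the sources used here do not give the strain, the targeted part of Git2 or the number of animals behind a library.

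Eph receptors are receptor tyrosine kinases that bind ephrins on neighbouring cells, so that both cells receive a signal. A-type ephrins are held in the membrane by a lipid anchor and B-type ephrins cross it and carry a signalling tail. In the crypt, EphB2 and EphB3 are Wnt target genes of the proliferating and Paneth cells at the base, ephrin-B1 and ephrin-B2 are higher toward the villus, and repulsion between the cells that carry them keeps the compartments in order.

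Libraries labelled Git2-knockout held 16284414 to 16837158 estimated reads and wild-type libraries 18753649 to 19106581. Git2, which encodes a scaffold protein that acts on Arf GTPases, stood at 17.4, 15.5 and 16.8 CPM in the libraries labelled Git2-knockout (below, Git2-KO), against 22.2, 23.7 and 22.7 CPM in wild-type (CPM, reads relative to the library's total after TMM scaling). Its RNA was thus reduced in part, which is no check of the labels because RNA of a gene can remain where its protein is lost. Directions below are those of the libraries so labelled. The 8 pan-epithelial markers were all detected, with a summed level of 10129 to 10217 TPM in Git2-KO and 10221 to 10566 TPM in wild-type (TPM, the deposited level relative to the library's total and corrected for transcript length), and 6 of them fell; the median of the 8 log2 fold changes was -0.19. Markers of other cells also moved with the labels. The marker counts stand beside 29.6% of all genes tested that rose and 27.4% that fell. Of 12 blood endothelial markers, 11 rose, with a summed level of 49.5 to 56.6 TPM in Git2-KO and 22.3 to 22.7 TPM in wild-type. Of 11 tested fibroblast and smooth muscle markers, 11 rose (83.1 to 91.0 TPM in Git2-KO and 24.8 to 25.6 TPM in wild-type for the list of 12). All 6 tested B cell markers fell (8.62 to 10.4 TPM in Git2-KO and 21.1 to 21.6 TPM in wild-type for the list of 7). Of 8 macrophage markers 2 rose and 1 fell (133 to 136 TPM in Git2-KO and 163 to 166 TPM in wild-type). Without Csf1r, which fell (51.5 to 55.1 TPM in Git2-KO and 103 to 105 TPM in wild-type), the other 7 summed to 79.1 to 81.7 TPM in Git2-KO and 58.6 to 62.5 TPM in wild-type. No marker of these lists was at 0 in any library.

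Relative to wild-type, the Git2-KO libraries had less RNA of Ephb3, Ephb4, Ephb6, Epha1 and the A-type ephrin Efna4, and more of the B-type ephrin Efnb2. Efna4 was 1.73-fold lower, Ephb6 1.56-fold, Ephb3 1.50-fold, Ephb4 1.24-fold and Epha1 1.14-fold lower, and Efnb2 was 1.46-fold higher. Ephb2, Epha2, Efnb1 and Efna1 did not pass the test. Thus 5 of the 10 genes fell and 1 rose (edgeR's quasi-likelihood test, Benjamini-Hochberg adjusted p below 0.05, two-sided), where 27.4% of all genes tested fell and 29.6% rose. The 6 called genes of 10 stand beside 57% called among all genes, and 7 of the 10 had groups that did not overlap in CPM, beside 62.9% of all genes. The median log2 fold change of the 10 was -0.15, and that of all tested genes 0.02. On log2(TPM + 1) with limma, 3 of the 10 rose and 4 fell, where 56.1% of all genes were called, 42.1% rising and 14% falling, and the groups did not overlap in TPM in 62.6% of genes. The median of the 10 was 0.01 on that scale, where the median of all tested genes was 0.14. Ephb3 (-0.38), Ephb4 (-0.14) and Ephb6 (-0.27) fell by less there. The added 1 by itself shrinks differences at low TPM, which concerns Ephb6 most. Ephb6 had means of 1.19 TPM in Git2-KO and 1.65 TPM in wild-type. Ephb3 had means of 7.17 TPM in Git2-KO and 9.61 TPM in wild-type. For Ephb4, at 37.1 TPM in Git2-KO and 41.0 TPM in wild-type, the added 1 matters little. With the transcript length trend removed, 2 of the 10 rose and 7 fell, where 53.1% of all genes were called, 27% rising and 26% falling. With length and GC trends removed, 3 of the 10 rose and 5 fell, where 43.3% of all genes were called, 21.8% rising and 21.6% falling. With bulk RNA, fewer cells of a type and less RNA per cell cannot be told apart.

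**Figure D1:**
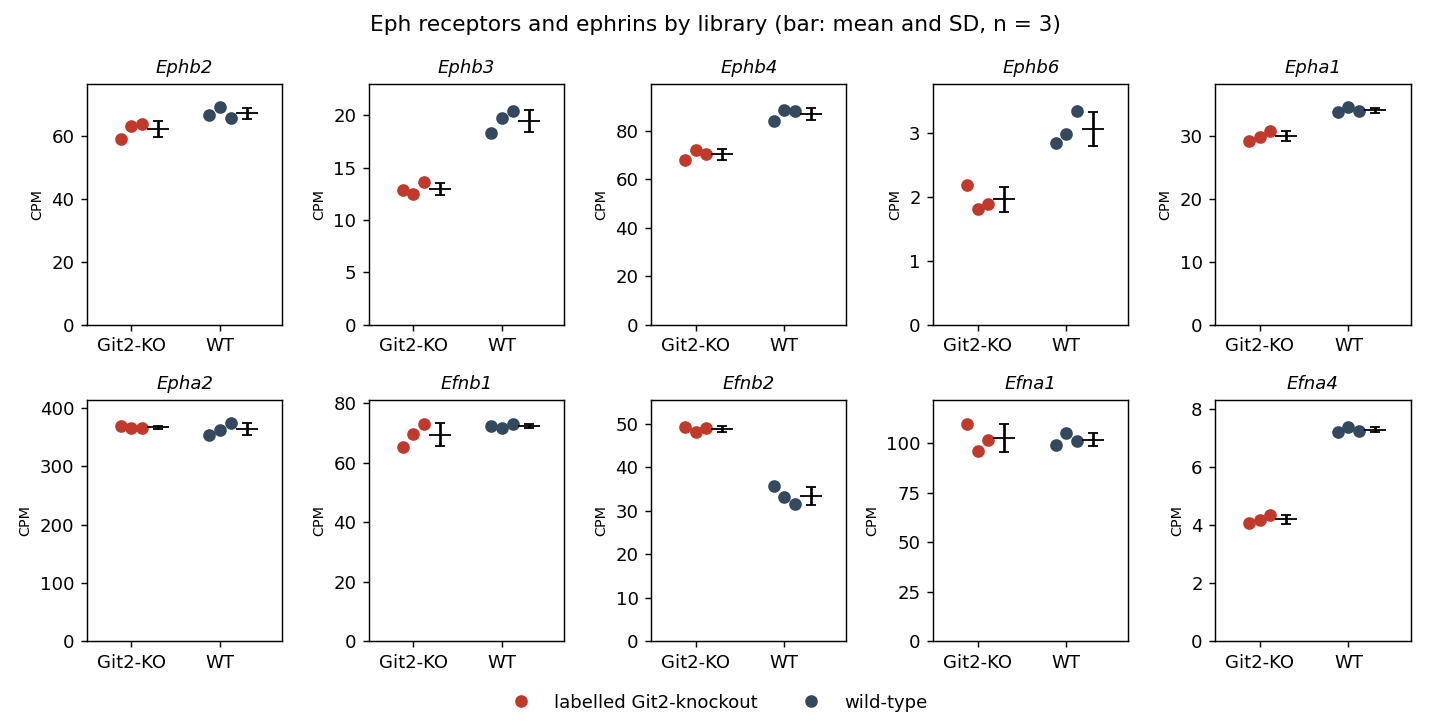
CPM of each gene in each library, with red points for the 3 libraries labelled Git2-knockout, dark points for the 3 wild-type libraries, and a black bar for the mean and SD. Groups are apart for Ephb2, Ephb3, Ephb4, Ephb6, Epha1, Efnb2 and Efna4 and overlap for Epha2, Efnb1 and Efna1; every vertical axis starts at 0.

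The stretches of DNA before the starts of 4 of these genes are shown because those genes differ in response: Ephb2, a Wnt target that did not pass the test, Ephb3, a Wnt target that fell, Efnb2, which rose, and Efna4, whose fold change was the lowest of the 10. Each is the 250 bases before the RefSeq transcript start, in the gene's own direction, on GRCm38.p6; the deposited values were made on GRCm39, per the submitters' processing notes, and no position was converted between the builds. Capitals mark the letters CTTTG followed by 2 letters that are each A or T, on either strand, which form the core that TCF factors of the Wnt pathway bind.
Ephb2, chr4:136836013-136836262, minus strand: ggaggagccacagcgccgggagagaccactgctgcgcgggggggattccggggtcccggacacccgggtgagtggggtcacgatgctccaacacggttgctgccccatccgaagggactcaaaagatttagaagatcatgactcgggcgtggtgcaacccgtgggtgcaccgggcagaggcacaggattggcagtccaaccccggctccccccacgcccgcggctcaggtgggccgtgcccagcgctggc
Ephb3, chr16:21204545-21204794, plus strand: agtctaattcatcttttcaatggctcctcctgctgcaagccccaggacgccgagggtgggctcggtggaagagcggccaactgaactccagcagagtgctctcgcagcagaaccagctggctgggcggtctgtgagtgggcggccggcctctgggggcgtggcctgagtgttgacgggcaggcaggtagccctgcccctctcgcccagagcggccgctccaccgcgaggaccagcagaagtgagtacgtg
Efnb2, chr8:8661243-8661492, minus strand: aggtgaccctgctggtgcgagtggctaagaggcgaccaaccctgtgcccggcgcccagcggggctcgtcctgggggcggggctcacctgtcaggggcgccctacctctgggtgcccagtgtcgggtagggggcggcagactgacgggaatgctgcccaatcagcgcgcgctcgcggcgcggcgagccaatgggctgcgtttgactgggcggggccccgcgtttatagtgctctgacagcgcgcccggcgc
Efna4, chr3:89338029-89338278, minus strand: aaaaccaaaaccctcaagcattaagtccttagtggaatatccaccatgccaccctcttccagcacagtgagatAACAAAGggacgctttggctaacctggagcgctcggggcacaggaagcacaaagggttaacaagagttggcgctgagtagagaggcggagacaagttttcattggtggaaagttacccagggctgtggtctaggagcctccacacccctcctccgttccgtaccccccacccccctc
The letters occur in 2 of the 11 windows of the 10 genes, at position -177 in Efna4 and at position -209 in Epha2, counted from the transcript start, and in 14.8% of the 32851 windows of all genes. No match in Ephb2 or Ephb3 says only that these letters are not in this window. As a check on placement, bases just after each start were sought near the starts of GENCODE transcripts of the gene. They were found for Ephb3, Efnb2 and Efna4 and not found for Ephb2, Epha2 or Efnb1. The windows of those not found are thus placed by RefSeq alone. The 4 windows had 68.4%, 65.6%, 72.0% and 54.4% G and C in the order printed, against a median of 52.4% over all windows. They held 20, 16, 27 and 7 CpG pairs, against a median of 6.

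Among the B-type receptors, Ephb2 marks the proliferative compartment in a gradient that falls from the crypt base. It was at 59.2, 63.3 and 63.9 CPM in Git2-KO libraries, against 66.8, 69.2 and 65.8 CPM in wild-type. All 3 Git2-KO values lay below all 3 wild-type values, by little. The log2 fold change was -0.11 (SE 0.05, 95% interval -0.22 to -0.01, edgeR, Benjamini-Hochberg adjusted p = 0.0622), which missed the threshold. The side of the threshold depended on the libraries and the scale: the adjusted p was 0.0451, 0.0482 and 0.0466 when Git2-KO replicate 1, 2 or 3 was left out, and 0.103, 0.213 and 0.0756 when wild-type replicate 1, 2 or 3 was left out. Ephb2 fell by 0.33 with the length trend removed (edgeR, adjusted p = 1.48e-06) and by 0.18 with length and GC trends removed (adjusted p = 0.00127), while on log2(TPM + 1) the difference was 0.03 (limma, adjusted p = 0.702).

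Ephb3, which in mice is needed for Paneth cells to stay at the crypt base, was at 12.9, 12.5 and 13.6 CPM in Git2-KO libraries, against 18.3, 19.7 and 20.4 CPM in wild-type. The groups were well apart, with the highest Git2-KO library below the lowest wild-type library. Ephb3 fell by 0.58 (log2 scale, SE 0.08, edgeR, Benjamini-Hochberg adjusted p = 1.2e-05), and 4.29% of all tested genes had a lower fold change. The ratio of Ephb3 to Ephb2, in TPM within each library, was 0.311, 0.277 and 0.294 in Git2-KO and 0.396, 0.392 and 0.421 in wild-type. This ratio does not depend on how libraries are scaled. Its groups did not overlap, at a log2 difference of -0.46 (exact two-sided permutation test, p = 0.1, the smallest that 3 against 3 libraries allow, adjusted p = 0.133 over 4 ratios).

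Ephb4 is the receptor of veins and is also made by crypt epithelium. It was the most abundant B-type receptor by TPM in every library and was at 68.2, 72.3 and 70.5 CPM in Git2-KO libraries, against 84.0, 88.5 and 88.2 CPM in wild-type. The groups did not overlap. Ephb4 fell by 0.31 (log2 scale, SE 0.05, edgeR, Benjamini-Hochberg adjusted p = 4.82e-05). The fall stands beside the rise of the endothelial markers, whose median log2 fold change was 1.14; their part in the result was not tested.

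Ephb6, a receptor whose kinase domain is catalytically inactive, was the scarcest of the 10 genes. It had 36, 31 and 32 estimated reads in Git2-KO libraries, against 53, 56 and 63 in wild-type, which is 2.18, 1.82 and 1.88 CPM in Git2-KO against 2.85, 2.99 and 3.35 CPM in wild-type. The groups were apart although each value rests on few reads. The log2 fold change was -0.64 with a wide interval, -1.01 to -0.28 (SE 0.17, edgeR, Benjamini-Hochberg adjusted p = 0.0045). Summed over the 5 B-type receptors in the table, levels were 65.5, 72.6 and 72.0 TPM in Git2-KO and 73.7, 77.9 and 76.8 TPM in wild-type. Within that sum the share of Ephb3 was 10.3 ± 0.482% in Git2-KO and 12.6 ± 0.341% in wild-type, that of Ephb2 34.9 ± 0.905% in Git2-KO and 31.3 ± 0.488% in wild-type, and that of Ephb4 53.1 ± 0.865% in Git2-KO and 53.9 ± 0.319% in wild-type (SD, n = 3 each). The shares of Ephb3 and Ephb2 did not overlap between the groups and those of Ephb4 did.

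Of the A-type receptors, Epha2, a receptor of many epithelia that also signals without a ligand, was the most abundant of the 10 genes by TPM. It was at 370, 365 and 365 CPM in Git2-KO libraries, against 354, 361 and 374 CPM in wild-type. The Git2-KO values lay inside the wild-type range. The log2 fold change was 0.01 with a 95% interval of -0.07 to 0.09 (edgeR, Benjamini-Hochberg adjusted p = 0.801). With length and GC trends removed Epha2 rose by 0.08 (edgeR, adjusted p = 0.0261). On log2(TPM + 1) it rose by 0.19 (limma, adjusted p = 6.96e-04), a scale on which the median of all genes lay at 0.14.

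Epha1 was at 29.2, 29.8 and 30.7 CPM in Git2-KO libraries, against 33.8, 34.5 and 33.9 CPM in wild-type. The groups did not overlap in CPM and did overlap in TPM. Epha1 fell by 0.19 (log2 scale, SE 0.05, edgeR, Benjamini-Hochberg adjusted p = 0.00807). The call was lost on log2(TPM + 1), where the difference was -0.02 (limma, adjusted p = 0.766), and with transcript length and GC trends removed, where it was -0.10 (edgeR, adjusted p = 0.109). The gene overlaps Zyx, which encodes the focal adhesion protein zyxin and fell by 0.24 (adjusted p = 0.00265; 0.03 with length and GC trends removed, adjusted p = 0.743), and the sources used here do not say whether counting used strand.

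Among the B-type ephrins, Efnb1, the main EphB ligand of the villus side, was the more abundant by TPM in every library. It was at 65.3, 69.8 and 73.0 CPM in Git2-KO libraries, against 72.3, 71.6 and 73.1 CPM in wild-type. The highest Git2-KO library lay among the wild-type ones and replicate 1 was the lowest of all 6. The log2 fold change was -0.06 with a 95% interval of -0.17 to 0.05 (edgeR, Benjamini-Hochberg adjusted p = 0.33). Efnb1 fell by 0.11 with the length trend removed (edgeR, adjusted p = 0.036). Its sign turned with length and GC trends removed, to 0.05 (adjusted p = 0.323), and on log2(TPM + 1), to 0.10 (limma, adjusted p = 0.178).

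Efnb2, a ligand of EphB receptors in the epithelium and the mark of arteries in vessels, was the gene that rose. It was at 49.2, 48.0 and 49.1 CPM in Git2-KO libraries, against 35.6, 33.0 and 31.5 CPM in wild-type. The Git2-KO libraries agreed closely and all lay above the highest wild-type library. Efnb2 rose by 0.54 (log2 scale, SE 0.06, edgeR, Benjamini-Hochberg adjusted p = 7.23e-07), and 88.7% of tested genes had a lower fold change. The endothelial markers Kdr (1.52), Pecam1 (1.11) and Cdh5 (1.24) rose in the same libraries, all as log2 fold changes, and the level of Efnb2 was 22.7 to 23.6 TPM in Git2-KO and 13.3 to 15.2 TPM in wild-type; the part of endothelial cells in the rise was not tested.

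Of 4 ratios between these genes, 3 had groups that did not overlap, that of Ephb3 to Ephb2 among them. The ratio of Ephb4 to Efnb2, a receptor and its ligand, was 1.54, 1.67 and 1.59 in Git2-KO and 2.63, 2.97 and 3.11 in wild-type, a log2 difference of -0.86. The ratio of Efnb1 to the sum of Ephb2 and Ephb3 was 1.49, 1.50 and 1.51 in Git2-KO and 1.39, 1.27 and 1.32 in wild-type, a log2 difference of 0.18. Groups did not overlap in either. For Ephb4 to Efnb2 this was fixed by the single genes, whose groups were already apart in TPM in opposite directions. That ratio and its p therefore add no further result. Among all genes tested, 62.6% had groups apart in TPM. That share is of single genes, and none was worked out for ratios. Both ratios reached p = 0.1, the smallest possible (exact two-sided permutation test, adjusted p = 0.133). Summed over Efnb1, Efnb2 and Efnb3, B-type ephrins stood at 66.8, 73.3 and 75.0 TPM in Git2-KO and 61.4, 58.6 and 58.7 TPM in wild-type. The share of Efnb2 in that sum was 32.5 ± 1.39% in Git2-KO and 23.8 ± 1.08% in wild-type (SD, n = 3 each).

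**Figure D2:**
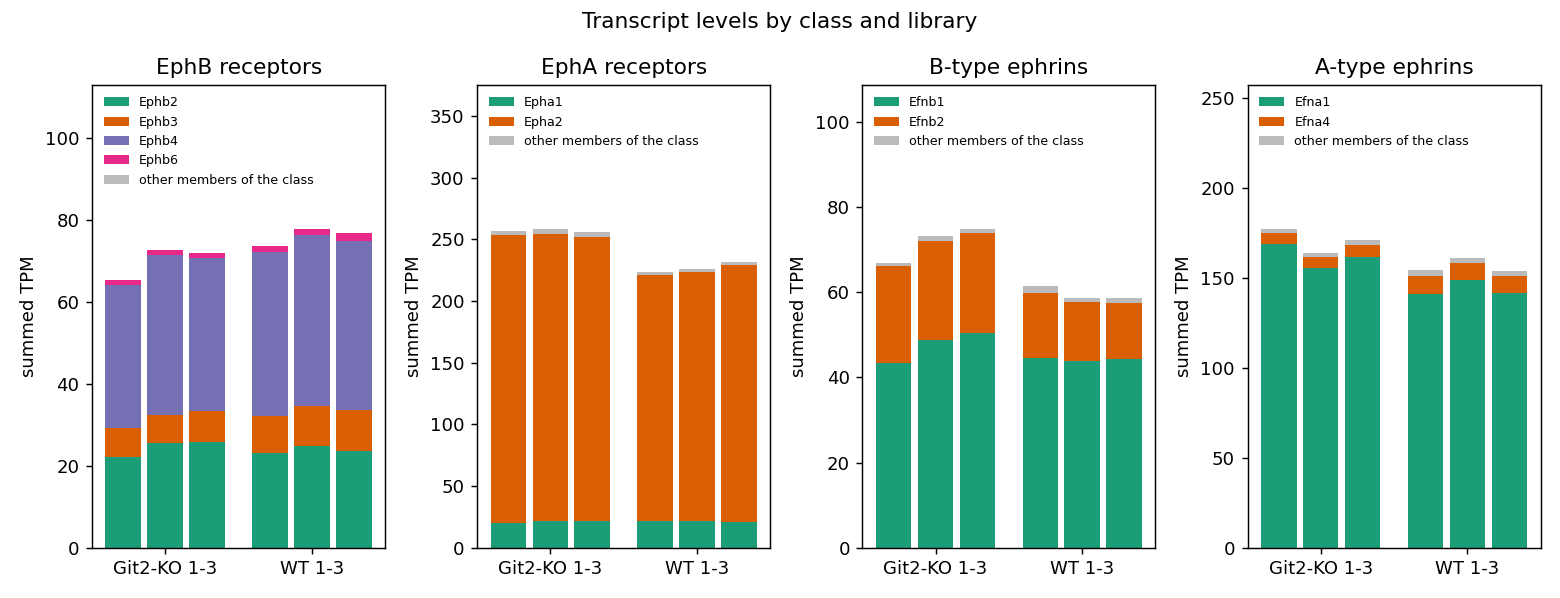
Summed TPM of the 4 classes in each library (left 3 bars Git2-KO, right 3 bars wild-type), stacked by gene, with the remaining detected genes of a class in grey. Ephb4 and Ephb2 make up most of the B-type receptors, Epha2 about 90% of the A-type receptors, and the Efnb2 portion is larger in all 3 Git2-KO bars.

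Among the A-type ephrins, Efna1, the usual ligand of EphA2, was at 110, 96.3 and 102 CPM in Git2-KO libraries, against 99.1, 105 and 101 CPM in wild-type. The Git2-KO values spread past both ends of the wild-type range. The log2 fold change was 0.01 with a 95% interval of -0.10 to 0.12 (edgeR, Benjamini-Hochberg adjusted p = 0.867). Efna1 rose by 0.18 with the length trend removed (edgeR, adjusted p = 5.59e-04), by 0.28 with length and GC trends removed (adjusted p = 5.05e-06) and by 0.17 on log2(TPM + 1) (limma, adjusted p = 0.006). At an implied 1.43 kb it has the shortest transcripts of the 10. The ratio of Efna1 to Epha2 was 0.724, 0.667 and 0.703 in Git2-KO and 0.707, 0.738 and 0.680 in wild-type, with overlapping groups (exact two-sided permutation test, p = 0.7).

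Efna4, a ligand of several EphA receptors, was at 4.07, 4.16 and 4.36 CPM in Git2-KO libraries, against 7.21, 7.37 and 7.24 CPM in wild-type. Values within each group were close and the groups were far apart. Efna4 fell by 0.79 (log2 scale, SE 0.11, edgeR, Benjamini-Hochberg adjusted p = 1.87e-05), and 1.91% of tested genes had a lower fold change. With length and GC trends removed it fell by 0.49. Its estimated reads were 67 to 74 per Git2-KO library and 134 to 138 per wild-type library. Its share of the summed A-type ephrin TPM was 3.60 ± 0.298% in Git2-KO and 6.09 ± 0.102% in wild-type, while Efna1 held 94.9 ± 0.392% in Git2-KO and 92.1 ± 0.419% in wild-type (SD, n = 3 each).

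**Figure D3:**
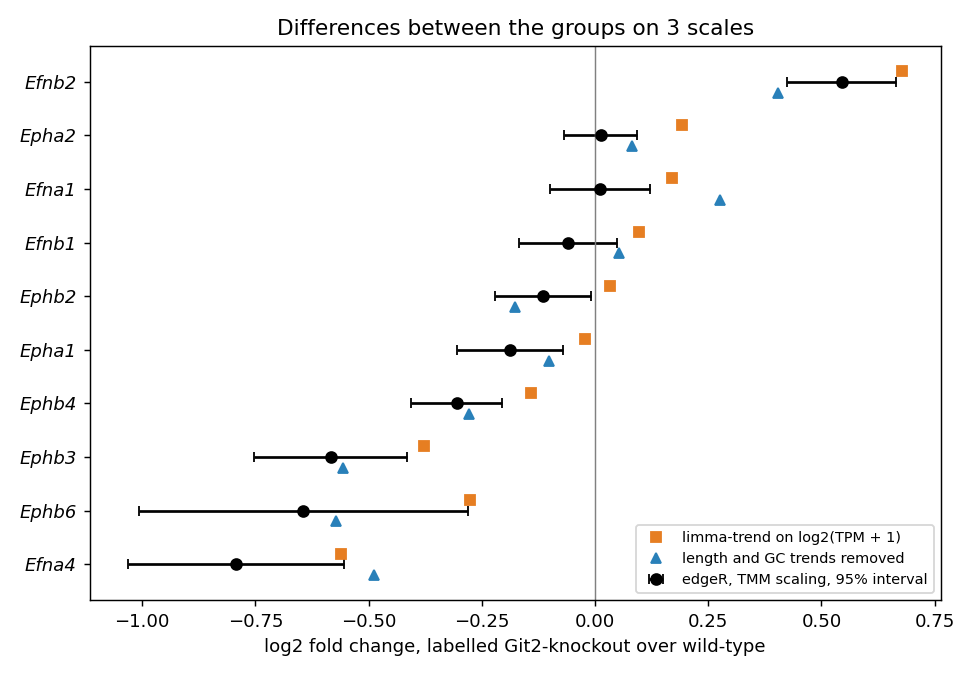
Log2 fold change of Git2-KO over wild-type for each gene: black points are edgeR estimates after TMM scaling with 95% intervals, squares the values on log2(TPM + 1), triangles the edgeR values with length and GC trends removed. Efnb2, Epha2 and Efna1 are above 0 on all 3, Epha2 and Efna1 by only 0.01 at the black points. Ephb3, Ephb4, Ephb6, Epha1 and Efna4 are below 0 on all 3, while Ephb2 and Efnb1 do not keep 1 sign.

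By level per length, the 10 genes kept nearly the same order in both groups. In Git2-KO the order by mean TPM was Epha2, Efna1, Efnb1, Ephb4, Ephb2, Efnb2, Epha1, Ephb3, Efna4 and Ephb6, and in wild-type Epha1 stood before Efnb2. Levels ran from 1.12 to 233 TPM over the Git2-KO libraries and from 1.56 to 208 TPM over the wild-type libraries. Neighbours in this order had overlapping library values only for Ephb2 and Efnb2 in Git2-KO and for Ephb3 and Efna4 in wild-type. Efnb2 was at the level of Ephb2 in Git2-KO and below Epha1 in wild-type.

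Of the 12 other mouse Eph receptors and ephrins listed, 11 had a row, 6 passed the filter, 1 rose and 1 fell. The shares over all genes tested were 29.6% and 27.4%. Epha4, best known from axon guidance and also present in mesenchyme, rose to 4.49, 7.03 and 6.30 CPM in Git2-KO, against 3.42, 4.59 and 3.19 CPM in wild-type. The groups overlapped. Its log2 fold change was 0.67 (SE 0.18, edgeR, Benjamini-Hochberg adjusted p = 0.00477), and 0.39 with length and GC trends removed, in the same libraries in which fibroblast markers had a median of 1.60; their part was not tested. Efna3, an A-type ephrin, fell by 0.95 (SE 0.30, adjusted p = 0.013), on 8 to 9 estimated reads per Git2-KO library and 18 to 19 per wild-type library. This call was lost with DESeq2, at -0.97 (adjusted p = 0.0908), and with length and GC trends removed, at -0.76 (edgeR, adjusted p = 0.056), and on log2(TPM + 1) the difference was -0.29. Efna3 had no implied transcript length, so its length correction was the median one. At means of 0.53 TPM in Git2-KO and 0.877 TPM in wild-type, the added 1 shrinks the last difference. Epha7 (0.36), Epha10 (0.25), Efnb3 (-0.47) and Efna2 (-0.20) did not pass the test, as log2 fold changes. Ephb1, Epha3, Epha5, Epha6 and Efna5 had 0 to 16.5 estimated reads in a library and were removed by the filter. With no filter, Epha3, at 5, 12 and 8 estimated reads in Git2-KO and 2, 5 and 3 in wild-type, rose by 1.43 (edgeR, adjusted p = 0.0417). Epha6 passed the filter and rose by 1.11 when Git2-KO replicate 1 was left out (adjusted p = 0.0334), and was at 0.71 with no filter (adjusted p = 0.275).

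Genes that act downstream of Eph receptors changed in both directions. Of 29 listed, 11 rose and 9 fell, where 29.6% of all genes tested rose and 27.4% fell. The median log2 fold change was 0.02. Rock1, which encodes a kinase of the actin cytoskeleton, was at 123 ± 1.74 CPM in Git2-KO and 74.9 ± 3.71 CPM in wild-type and rose by 0.71 (SE 0.05, edgeR, Benjamini-Hochberg adjusted p = 6.06e-09), and by 0.25 with length and GC trends removed. Rasa1, a Ras GTPase activating protein that binds EphB2, rose by 0.64, and by 0.13 with length and GC trends removed. The Src family kinase gene Fyn rose by 0.57. Vav2, an exchange factor recruited by Eph receptors, fell by 0.78 (SE 0.05, adjusted p = 5.11e-09), to 32.4 ± 0.232 CPM in Git2-KO, against 55.5 ± 0.976 CPM in wild-type (SD, n = 3 each). The exchange factor gene Arhgef16 fell by 0.14, a call lost under 5 alternatives, with 0.04 when length and GC trends were removed. The abundant GTPase genes Rhoa (0.08) and Rac1 (-0.04) did not pass the test; Rhoa rose with library totals, on log2(TPM + 1) and with either trend removal, by up to 0.26, and Rac1 rose by 0.12 on log2(TPM + 1) and fell by 0.10 without Git2-KO replicate 1.

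Of 11 genes of ephrin reverse signalling and shedding, 4 rose and 3 fell, with a median of 0.09. Among all genes tested 29.6% rose and 27.4% fell. Adam10, the protease that cleaves ephrins and Eph receptors from the cell surface, was at 145 ± 1.81 CPM in Git2-KO and 109 ± 3.33 CPM in wild-type (SD, n = 3 each) and rose by 0.41 (SE 0.04, edgeR, Benjamini-Hochberg adjusted p = 7.24e-07), and by 0.22 with length and GC trends removed. The junction scaffold gene Tjp1 (0.46) and the gene of syntenin, Sdcbp (0.27), which binds ephrin-B tails, rose, Tjp1 by 0.13 with length and GC trends removed and Sdcbp by 0.43 on log2(TPM + 1). Rhbdl2, a rhomboid protease known to cleave ephrin-B3, fell by 0.59, and by 0.28 on log2(TPM + 1). Cdh1 (0.09) and Pard6b (-0.07) did not pass the test. Cdh1 rose under 4 alternatives, by up to 0.25, and Pard6b rose by 0.09 on log2(TPM + 1) and fell by 0.12 with the length trend removed and by 0.11 without Git2-KO replicate 1.

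Of 16 tested Wnt target genes of the crypt, the group to which Ephb2 and Ephb3 belong, 7 fell and 3 rose, with a median of -0.15. Among all genes tested 27.4% fell and 29.6% rose. Ascl2 (-0.86), Myc (-0.55), Cdca7 (-0.46), Rnf43 (-0.19) and Axin2 (-0.19) fell, while Lgr5 (0.48) and Slc12a2 (0.21) rose, as log2 fold changes. The difference of Ephb3 (-0.58) lies between those of Ascl2 and Myc. On log2(TPM + 1), 6 of the Wnt targets rose and 4 fell, where 42.1% of all genes rose and 14% fell. The calls of Axin2 (-0.04) and Rnf43 (-0.05) were lost there. With length and GC trends removed, Slc12a2 fell by 0.23 (edgeR, adjusted p = 7.51e-07), Lgr5 rose by 0.28, and Ascl2 and Myc fell by 0.49 and 0.36.

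**Figure D4:**
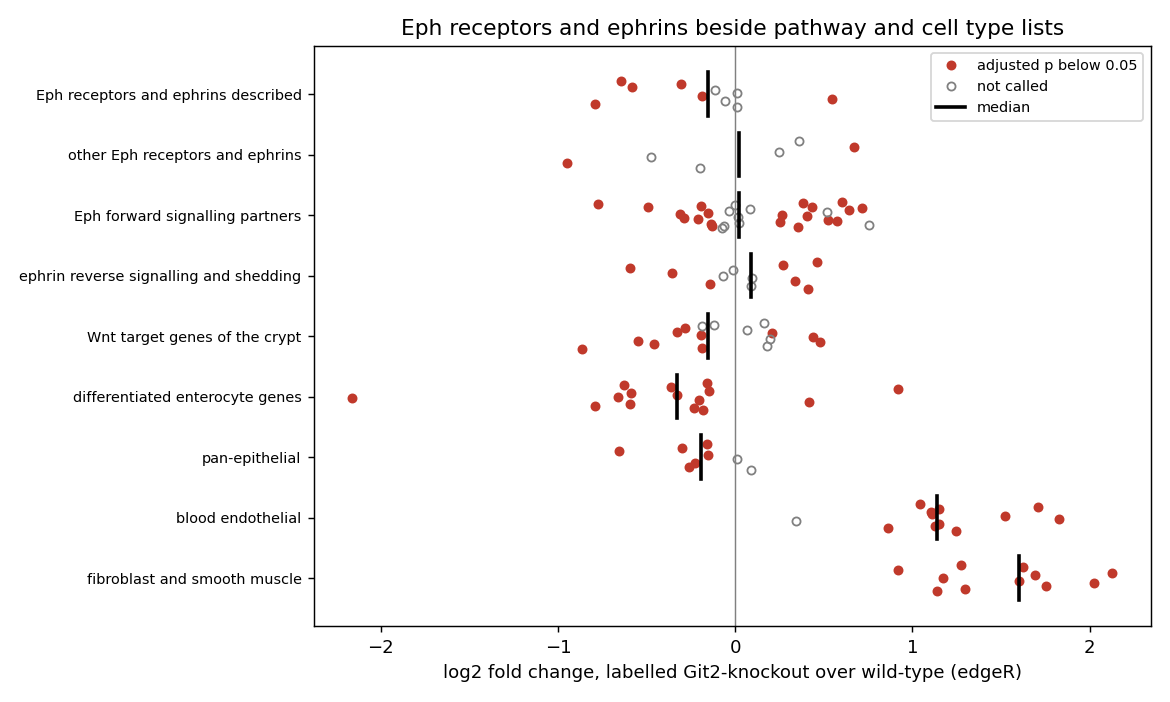
Log2 fold change of Git2-KO over wild-type (edgeR) for each tested gene of the listed groups, filled where the adjusted p was below 0.05, with a black line at the median. The 10 Eph receptors and ephrins spread from -0.79 to 0.54 around a median of -0.15, and the endothelial and fibroblast markers lie to the right with medians of 1.14 and 1.60.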

How the data were processed

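Per the submitters' processing notes, HISAT, Bowtie2, RSEM and the GRCm39 build were used, with no versions. The authors deposited 1 table with estimated counts, FPKM and TPM per gene and library, per the file headers. Estimated counts were rounded and tested with edgeR 4.0.16 in R 4.3.3: filterByExpr, TMM scaling, robust quasi-likelihood test over all 13558 genes, Benjamini-Hochberg adjustment, threshold 0.05. The standard error is the log2 fold change divided by the root of F. TPM values as deposited gave levels between genes and ratios. FPKM values as deposited gave implied transcript length (93.1% of tested genes had one), and GENCODE mouse transcripts gave GC content (97.9%). RefSeq gene tables gave chromosome, order and promoter windows.

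The 10 genes and all lists were chosen with earlier results of these data known. The genes named besides them were Git2, every other Eph receptor or ephrin, in each further list the 4 called with the smallest p and the 3 with the highest level, and the 3 nearest profiles of Ephb2 and of Ephb3. Zyx, the neighbours of Efna4 and 3 endothelial markers were added after values were seen. Alternatives were RLE, upper quartile and library total scaling, DESeq2 1.42.0, limma-voom and limma-trend on log2(TPM + 1) (limma 3.58.1), other filters, a non-robust fit, the replicate number as a block, removal of length and GC trends by loess (span 0.5), and leaving out each library. The steps were tested on simulated data. The result of 1 list of marker genes is not reported here. The labels do not say whether replicate libraries came from different animals or cultures; the p-values therefore cover the spread among these libraries alone, which may be technical. Replicates differed by more than counting noise (chi-square per degree of freedom 1.59 to 6.79), and each library was counted. The values of 6.79 and 5.05 were those of Git2-KO replicate 1 against replicates 2 and 3. Other pairs within a group lay at 1.59 to 2.77. Without Git2-KO replicate 1, 4082 genes rose and 4261 fell, against 4013 and 3712 with all libraries.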

Additional observations from a re-analysis of the deposited data

How the results depend on the processing

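Efnb2 rose and Ephb3, Ephb4 and Efna4 fell under all 18 alternatives, with log2 fold changes of 0.38 to 0.68, -0.70 to -0.38, -0.44 to -0.14 and -0.84 to -0.49; Ephb6 fell under the 17 in which it could be tested. Leaving out any library kept 1 rise and gave 5 to 6 falls among the 10 genes. The number that rose was 3 with length and GC trends removed or on log2(TPM + 1), and 2, with 7 falls, with the length trend alone removed. Among all genes 1894 fell and 5712 rose on log2(TPM + 1), against 3712 and 4013 with edgeR, and 75.1% of calls were then upward against 51.9%. Signs turned where differences were small: Ephb2 was at 0.0335 on log2(TPM + 1), and Efnb1 at 0.0971 there and at 0.0528 with length and GC trends removed. Epha2 was at -0.00101 with RLE, -0.0156 with upper quartile scaling, -0.00103 with DESeq2, -0.0683 with the length trend removed, 0.0817 with both trends removed (called as rising, edgeR adjusted p = 0.0261) and -0.0192 to 0.0319 with a library left out. Efna1 was at -0.0016 with RLE, -0.0164 with upper quartile scaling, -0.00147 with DESeq2 and -0.0668 to 0.0446 with a library left out. Ephb2 was also called as falling with RLE (edgeR adjusted p = 0.036), upper quartile scaling (0.0224), the length trend removed (1.48e-06) and both trends removed (0.00127).

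Among the other Eph receptors and ephrins, 2 rose with no filter (Epha3 besides Epha4) and 0 with a filter of 5 CPM, 1 to 2 rose with a library left out, and 0 fell with DESeq2, with a filter of 5 CPM or with both trends removed. In the downstream list 2 fell on log2(TPM + 1) and 14 with the length trend removed. In the list of reverse signalling 1 fell with both trends removed, 2 to 4 fell with a library left out and 3 to 5 rose. Of the Wnt targets 6 rose and 4 fell on log2(TPM + 1). Of the enterocyte genes 1 rose (Sis) with no filter and with either trend removal, and 8 fell on log2(TPM + 1). Deviations of same-numbered libraries correlated at 0.0409, -0.00113 and 0.0498, so the numbers were not taken as pairs; with the replicate block 3863 genes rose and 3578 fell, and 1 of the 10 genes rose and 5 fell. The causes of these shifts were not tested. Depth limits Ephb6 and Efna3, whose values rest on at most 63 reads per library.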

Other observations

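Efna1, Efna3 and Efna4 lie side by side on chromosome 3. With the nearest genes of the table on both sides, in RefSeq order, they make 7 genes. Dpm3 (-0.77), Slc50a1 (-0.31), Efna3 (-0.95), Efna4 (-0.79) and Dcst1 (-0.28) fell, and Efna1 (0.01) and Adam15 (-0.05) did not pass the test (edgeR, log2 fold changes). Over all genes tested, 27.4% fell and 29.6% rose. With length and GC trends removed the calls of Dpm3 (-0.15), Slc50a1 (0.09), Efna3 (-0.76) and Dcst1 (-0.13) were lost. For Efna3, which had no implied length, the length correction was the median one. These neighbours were looked at after the values of Efna4 had been seen.

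Of 15 genes of differentiated enterocytes, the cells of the villus, 13 fell and 2 rose, where 27.4% of all genes tested fell and 29.6% rose. The median log2 fold change was -0.33. Apoa4, an apolipoprotein of chylomicrons, was at 10172 ± 362 CPM in Git2-KO and 15354 ± 551 CPM in wild-type, Apoa1 at 4659 ± 228 CPM in Git2-KO and 8056 ± 46.4 CPM in wild-type, and Fabp1, a fatty acid binding protein, at 6.71 ± 0.588 CPM in Git2-KO and 30.0 ± 0.572 CPM in wild-type (SD, n = 3 each). Apob (0.42) and sucrase-isomaltase, Sis (0.92), rose. The call of Apob was lost with no filter (0.41, edgeR adjusted p = 0.0512) and with the length trend removed (-0.04, adjusted p = 0.179), and with length and GC trends removed Apob fell by 0.19 (adjusted p = 3.72e-06); Sis, Apoa4 and Apoa1 were then at 0.36, -0.29 and -0.38.

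The 3 genes with log2 CPM profiles closest to that of Ephb3 over the 6 libraries, after centring each gene, were Bop1, Apoa4 and Nans, at Euclidean distances of 0.0513, 0.0676 and 0.0726 among 11401 genes compared. For Ephb2 they were Ppp1r13b, Cdc42se2 and Ttll1, at 0.0258, 0.031 and 0.0328. Within a distance of 0.1 lay 14 genes for Ephb3 and 186 for Ephb2. Over 6 libraries in 2 groups these distances depend largely on the group difference. Bop1, Apoa4 and Nans had log2 fold changes of -0.60, -0.59 and -0.57, beside -0.58 for Ephb3. Shared regulation was not tested.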
